A study of Mus musculus with 16 samples.

Results

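Interferon-gamma and the CXCR3 chemokines were followed as 9 genes in tumors grown in the abdomen of mice: the ligand Ifng, its receptor chains Ifngr1 and Ifngr2, the response genes Irf1 and Socs1, the chemokines Cxcl9, Cxcl10 and Cxcl11, and the chemokine receptor Cxcr3. They were taken by gene symbol from the 22298 genes counted in each of 16 tumors, and all 9 had enough counts to be tested. The mice were of the 615 line and 6 weeks old, carried no stated genetic change (genotype WT), and were given 500000 MFC cells, a mouse forestomach carcinoma line, into the peritoneal cavity. Mice of the vehicle group (8 tumors) were given PBS, and mice of the IL-33 treatment group (8 tumors) IL-33 at 20 μg/kg, in both cases intraperitoneally every 2 days. These groups are called vehicle tumors and IL-33 tumors here, and the comparison asked how IL-33 given into the abdomen changed the tumor immune microenvironment. The study's methods give fewer mice per group than the 8 tumors sequenced, and the labels do not tie tumors to mice, so that some tumors may share a mouse and p-values measure the spread between tumors only.

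Interferon-gamma is made mainly by activated T cells and NK cells and binds a receptor built from the chains IFNGR1 and IFNGR2. Through the kinases JAK1 and JAK2 the receptor acts on GAS elements and induces genes such as Irf1, a transcription factor that acts on ISRE elements, and Socs1, an inhibitor of JAK kinases that limits the signal. CXCL9, CXCL10 and CXCL11 are chemokines induced by interferon-gamma that draw cells carrying CXCR3, largely effector T cells and NK cells, into inflamed tissue and tumors.

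The counts totaled 14139268 to 24290794 reads in vehicle tumors and 16569613 to 24288893 in IL-33 tumors. Values are given as CPM, counts relative to all counts on genes in that tumor. Limits for low counts cover counting error only. The intervals of fitted changes come from edgeR's test and include the spread between tumors. Epithelial genes had reads in every tumor (summed CPM of 8 genes 236 to 1546), but not all 8 of them. Up to 3 of the 8 had no read in a tumor, and only vehicle replicate 3 and IL-33 replicate 7 had reads of all 8. IL-33 replicate 7 stood apart, with 1692 CPM summed over 8 uterus and oviduct genes where the other tumors reached 27.3 CPM at most, and 1673 CPM over 6 ovary genes, where they reached 7.97 CPM. Results are therefore given with and without this tumor. Vehicle replicate 4 had the lowest TMM factor, the edgeR scaling for library composition, at 0.640, and IL-33 replicate 7 the highest, at 1.24.

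Cxcl9, Cxcl10 and Cxcl11 lie side by side on chromosome 5 of GRCm38, on the minus strand, within 44.1 kb between positions 92321347 and 92365485. GENCODE M21 classes Cxcl11 (5, 92359544 to 92365485) as a polymorphic pseudogene, because the reading frame differs between mouse strains. The allele of the 615 line was not determined, and the Cxcl11 values are transcript levels only. Ifng (10, 118441046 to 118445892), Ifngr1 (10, 19591949 to 19610229), Ifngr2 (16, 91547072 to 91565623), Cxcr3 (X, 101731535 to 101734269), Irf1 (11, 53770014 to 53778374) and Socs1 (16, 10782240 to 10785536) are annotated as protein coding.

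The 250 bases before the transcription start of 8 of the 9 genes were read from RefSeq (GRCm38.p6). They were searched on both strands for a GAS element (TTCNNNGAA), an ISRE core (GAAA, any 2 bases, GAAA) and an NF-kB type element (GGG, any 3 bases, TTCC). The windows of Irf1, Socs1, Cxcl10 and Cxcl9 are shown because these genes rose and fell together across the tumors, with matches in capitals. They cover chr11:53769764-53770013 on the plus strand for Irf1, and chr16:10785537-10785786, chr5:92348890-92349139 and chr5:92328080-92328329 on the minus strand for Socs1, Cxcl10 and Cxcl9.
Irf1: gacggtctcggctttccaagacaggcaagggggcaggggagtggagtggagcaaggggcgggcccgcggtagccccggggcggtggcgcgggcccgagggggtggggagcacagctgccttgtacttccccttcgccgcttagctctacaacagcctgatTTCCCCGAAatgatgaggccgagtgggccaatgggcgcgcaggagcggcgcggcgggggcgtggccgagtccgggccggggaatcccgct
Socs1: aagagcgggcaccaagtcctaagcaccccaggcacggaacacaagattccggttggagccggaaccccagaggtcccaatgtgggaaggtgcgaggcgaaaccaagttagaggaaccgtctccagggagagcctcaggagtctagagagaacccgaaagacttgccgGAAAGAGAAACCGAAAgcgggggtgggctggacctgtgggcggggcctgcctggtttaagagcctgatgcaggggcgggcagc
Cxcl10: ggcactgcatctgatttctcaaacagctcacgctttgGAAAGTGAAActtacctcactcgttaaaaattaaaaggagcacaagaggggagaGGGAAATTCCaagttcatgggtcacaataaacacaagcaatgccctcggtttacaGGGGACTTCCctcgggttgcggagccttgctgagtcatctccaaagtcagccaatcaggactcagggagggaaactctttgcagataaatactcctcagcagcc
Cxcl9: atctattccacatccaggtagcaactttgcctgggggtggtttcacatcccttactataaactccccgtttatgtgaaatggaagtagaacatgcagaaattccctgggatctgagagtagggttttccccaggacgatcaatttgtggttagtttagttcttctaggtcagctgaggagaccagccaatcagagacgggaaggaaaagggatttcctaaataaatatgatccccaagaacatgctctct
Irf1 held 1 GAS element, 90 to 82 bases before its start. In Socs1 there were 2 ISRE cores that overlap each other, 83 to 74 and 77 to 68 bases before its start. Cxcl10 held 1 ISRE core at 213 to 204 bases and 2 NF-kB type elements at 159 to 150 and 104 to 95 bases. Ifng held 1 GAS element at 249 to 241 bases, and Ifngr2 an NF-kB type element on the opposite strand at 75 to 66 bases. No match to these letters lay in the windows of Cxcl9, Cxcr3 and Ifngr1. Of 27025 promoters of the same length, 7.18% held the GAS element, 3.04% the ISRE core and 4.60% the NF-kB type element.

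Per transcript length, Irf1 was the most abundant of the 9 genes, with a mean of 75.1 TPM (transcripts relative to all transcripts, after division by length) over the 16 tumors. Cxcl10 followed at 64.2 TPM, Ifngr1 at 58.1 TPM, Ifngr2 at 44.1 TPM and Cxcl9 at 39.4 TPM. Socs1 had a mean of 17.9 TPM, Cxcr3 of 3.47 TPM, Cxcl11 of 2.64 TPM and Ifng of 1.54 TPM. Between neighbors in this order, only the gap from Socs1 to Cxcr3 (14.4 TPM) exceeded the larger of their SDs between the 16 tumors (11.5 TPM). This SD ignores that both genes of a pair were measured in the same tumors. Whether neighbors kept their order within tumors was not tested.

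None of the 9 genes passed the test between the groups. In edgeR's quasi-likelihood test over 16817 genes, 0 of 9 had an adjusted p under 0.05, as did 0% of all genes tested, and 0 of 9 had an unadjusted p under 0.05, against 11.2% of all genes (9.99% higher and 1.17% lower with IL-33). For 0 of 9 genes did the CPM of the groups fail to overlap, and the same held for 0% of all genes. DESeq2 and limma voom also called none of the 9, nor any other gene, after adjustment. The fitted change was above 0 for 5 genes and below 0 for 4, with a median of 0.028 on the log2 scale, beside 0.056 over all genes. Of all genes, 58.3% had a fitted change above 0.

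Ifng itself was scarce, with 198 reads in all 16 tumors together. In the vehicle group it lay at 0.07, 0.18 and 3.32 CPM (lowest, median, highest), and in the IL-33 treatment group at 0, 0.25 and 2.10 CPM. Vehicle replicate 7 was the highest of all tumors with 58 reads, followed by IL-33 replicates 4 and 8, and all but vehicle replicate 7 of the vehicle tumors lay within the range of the IL-33 tumors. IL-33 replicate 6 had no read, which allows up to 3 counts, or 0.162 CPM. The fitted log2 change was -0.052 (SE 0.91, 95% interval -1.97 to 1.86, edgeR adjusted p = 0.993), and by exact permutation of log2(CPM + 0.5) p was 0.824. In bulk tumors, fewer cells of a type and less RNA per cell cannot be told apart.

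The receptor chains differed between tumors less than the other members. Ifngr1, the ligand-binding chain, lay at 18.5, 52.8 and 65.5 CPM in vehicle tumors and at 47.2, 56.6 and 92.1 CPM in IL-33 tumors. The lowest of all was vehicle replicate 4 and the highest IL-33 replicate 7, the tumors with the lowest and the highest TMM factor, and the other 14 tumors lay between them. The log2 change was 0.20 (SE 0.14, 95% interval -0.09 to 0.49, edgeR adjusted p = 0.641) and without IL-33 replicate 7 it was 0.14 (edgeR adjusted p = 0.964). Ifngr2, the signaling chain, lay at 41.6, 54.6 and 63.6 CPM in vehicle tumors and at 39.3, 56.6 and 81.0 CPM in IL-33 tumors, with IL-33 replicate 7 again the highest. This order depended on the scaling. With TMM factors IL-33 replicate 7 was at 65.2 CPM, below IL-33 replicate 3 at 67.1 CPM. Vehicle replicate 4, the lowest vehicle tumor before, was then the highest vehicle tumor at 65.0 CPM. The log2 change of Ifngr2 was -0.047 (SE 0.12, 95% interval -0.29 to 0.20, edgeR adjusted p = 0.936).

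Irf1 and Socs1, the transcription factor and the inhibitor that interferon-gamma induces, had group medians close to each other. Irf1 lay at 39.9, 61.3 and 255 CPM in vehicle tumors and at 32.5, 76.3 and 206 CPM in IL-33 tumors. Vehicle replicate 7 was again the highest tumor, and IL-33 replicates 3 and 4, vehicle replicate 2 and IL-33 replicate 8 came next, so that the high tumors were of both groups. The log2 change of Irf1 was 0.028 (SE 0.42, 95% interval -0.86 to 0.91, edgeR adjusted p = 0.992). Socs1 lay at 8.82, 12.4 and 42.5 CPM in vehicle tumors and at 5.30, 13.0 and 33.7 CPM in IL-33 tumors, with the same 5 tumors on top. Its log2 change was -0.054 (SE 0.40, 95% interval -0.90 to 0.80, edgeR adjusted p = 0.983).

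The chemokines varied far more between tumors of a group than between the groups. Cxcl9 lay at 4.31, 17.2 and 197 CPM in vehicle tumors and at 2.27, 11.3 and 108 CPM in IL-33 tumors. Vehicle replicates 7 and 2 and IL-33 replicates 3, 4 and 8 were above 50 CPM, and the other 11 tumors, of both groups, were below 20 CPM. The log2 change of Cxcl9 was -0.25 (SE 0.81, 95% interval -1.96 to 1.45, edgeR adjusted p = 0.954).

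Cxcl10 lay at 3.82, 21.6 and 186.4 CPM in vehicle tumors and at 4.16, 20.5 and 186.8 CPM in IL-33 tumors, so that the medians and both ends of the range were alike. Its log2 change was 0.28 (SE 0.79, 95% interval -1.38 to 1.94, edgeR adjusted p = 0.947). Cxcl11 was lower throughout, at 0.354, 1.35 and 14.7 CPM in vehicle tumors and 0.162, 1.08 and 15.3 CPM in IL-33 tumors, with vehicle replicate 7 and IL-33 replicate 3 on top as for Cxcl10. Its log2 change was 0.25 (SE 0.89, 95% interval -1.62 to 2.13, edgeR adjusted p = 0.958).

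Cxcr3, the receptor of the 3 chemokines, had the largest fitted change of the 9 genes, which did not pass the test. It lay at 0.354, 1.02 and 4.97 CPM in vehicle tumors and at 0.216, 2.62 and 5.96 CPM in IL-33 tumors. In the IL-33 treatment group, replicates 3, 4, 7 and 8 were above 3 CPM and the other 4 below 2 CPM, whereas in the vehicle group only replicate 7 was above 2 CPM. IL-33 replicate 7 is the tumor with uterus, oviduct and ovary genes, and without it the IL-33 median was 1.76 CPM. The log2 change was 0.84 (SE 0.65, 95% interval -0.54 to 2.21, edgeR unadjusted p = 0.216, adjusted p = 0.687). Without vehicle replicate 7 it was 1.46 with an unadjusted p of 0.0308 and an adjusted p of 0.437 in edgeR, the only fit of the 9 genes without 1 tumor in which any unadjusted p was under 0.05. In that fit 10.1% of all genes were higher at the same threshold.

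**Figure D1:**
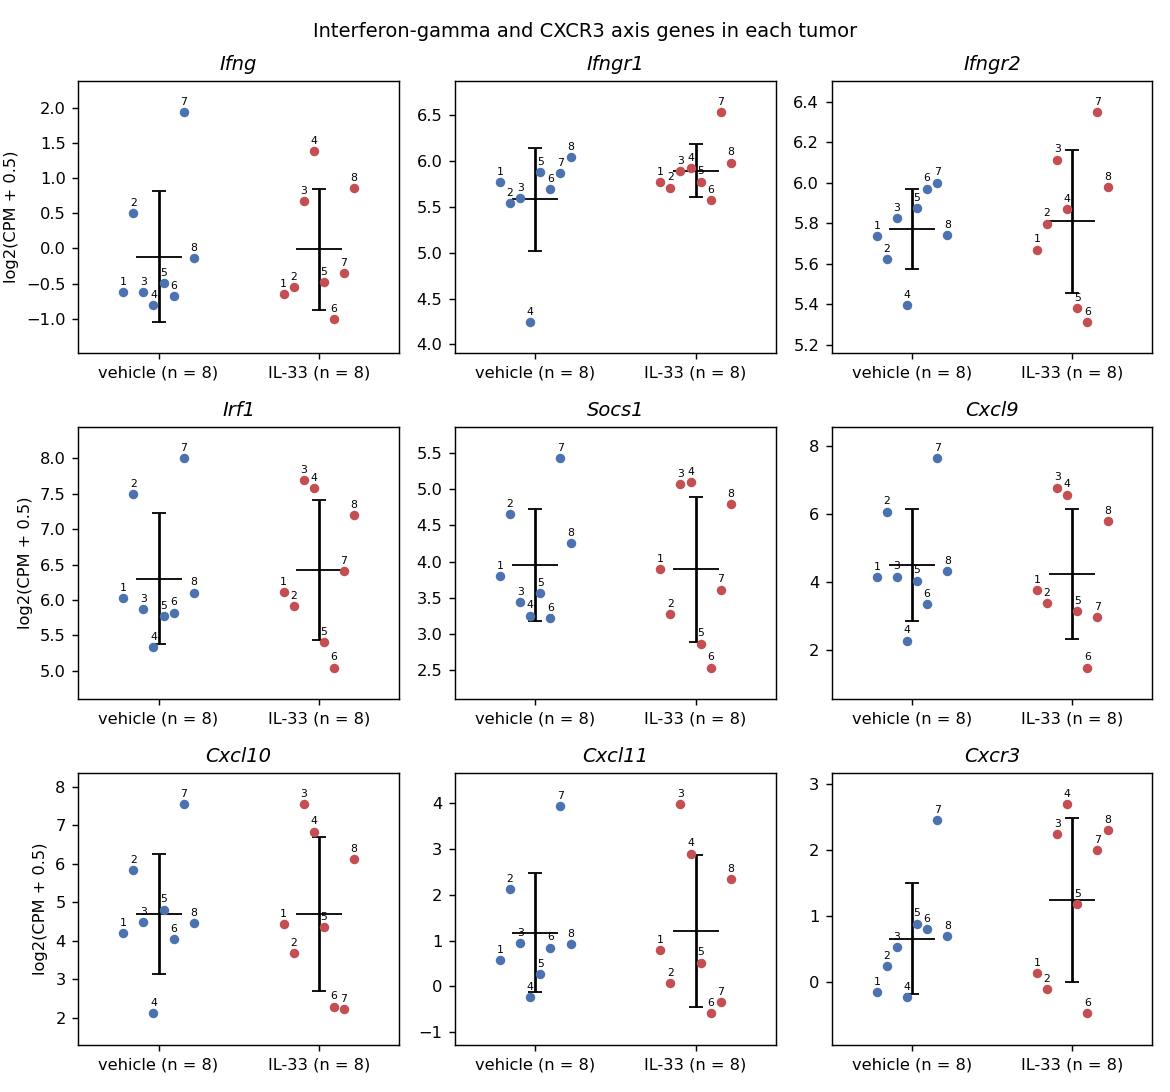
Each point is 1 tumor, labeled with its replicate number, as log2(CPM + 0.5) on the vertical axis, for the vehicle group (n = 8) and the IL-33 treatment group (n = 8). Black lines are the mean and SD of each group, and the vertical scale differs between genes. Vehicle replicates 2 and 7 and IL-33 replicates 3, 4 and 8 are the 5 highest points for Ifng, Irf1, Socs1, Cxcl9, Cxcl10 and Cxcl11.

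Of the 16 tumors, leaving out vehicle replicate 7 moved the values of the 7 genes other than the receptor chains the most. Without it, the log2 change was 1.15 for Cxcl10, 1.33 for Cxcl11, 0.74 for Cxcl9, 1.10 for Ifng, 0.38 for Irf1 and 0.25 for Socs1, and edgeR's adjusted p lay between 0.437 and 0.968 over the 9 genes. Without IL-33 replicate 3 the changes went the other way, to -0.36 for Cxcl10, -0.60 for Cxcl11 and -0.73 for Cxcl9. Without IL-33 replicate 7 they were 0.48 for Cxcl10, 0.45 for Cxcl11, -0.069 for Cxcl9 and 0.093 for Ifng. For Irf1 the change was then 0.10, for Ifngr2 -0.084 and for Cxcr3 0.82, and for Socs1 it changed sign to 0.047. In that fit 0 of 9 genes had an unadjusted p under 0.05, against 4.12% of all 15803 genes tested (1.83% higher and 2.29% lower), and 7 of 9 had a fitted change above 0, against 47.9% of all genes. In none of these fits did a member pass the adjusted threshold.

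**Figure D2:**
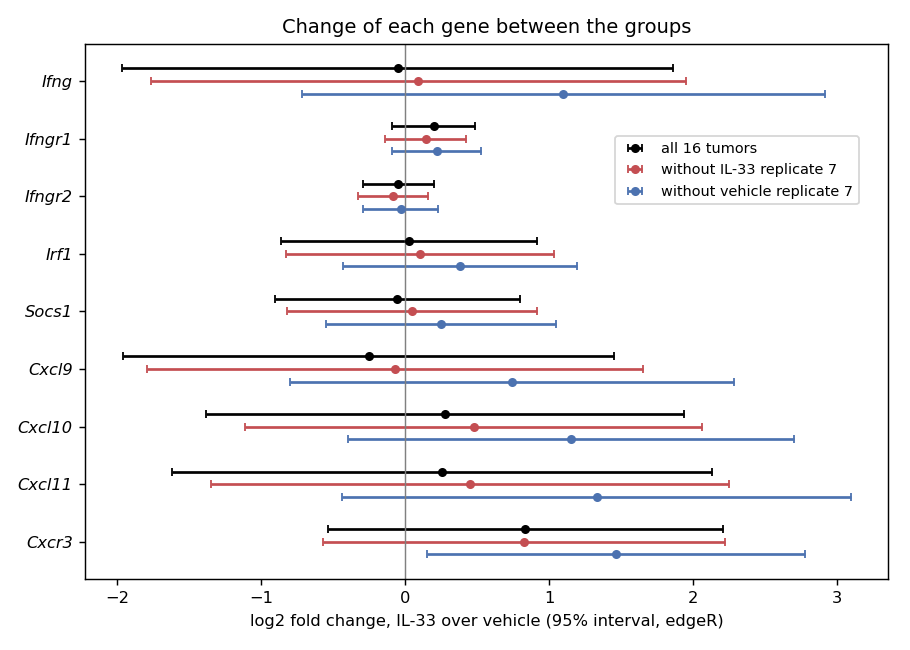
The horizontal axis is the log2 fold change of IL-33 over vehicle with its 95% interval from edgeR, for all 16 tumors (black), without IL-33 replicate 7 (red) and without vehicle replicate 7 (blue). All intervals include 0 except that of Cxcr3 without vehicle replicate 7 (0.15 to 2.77), and the receptor chains have the narrowest intervals.

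Between tumors, by contrast, 6 of the genes rose and fell as a block. The same 5 tumors, vehicle replicates 2 and 7 and IL-33 replicates 3, 4 and 8, were the 5 highest for Ifng, Cxcl9, Cxcl10, Cxcl11, Irf1 and Socs1. They held 81.3% of all Ifng reads, 79.9% of Cxcl9, 77.8% of Cxcl10, 82.2% of Cxcl11, 60.5% of Irf1 and 56.9% of Socs1 reads. Cxcr3 shared 4 of the 5, with IL-33 replicate 7 in place of vehicle replicate 2, and 64.1% of its reads lay in the same 5 tumors. Ifngr1 and Ifngr2 had 32.7% and 34.4% of their reads there.

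The spread of the chemokines was wide for genes of their level. On the scale of log2(CPM + 0.5), the SD between tumors of a group was 1.79 for Cxcl9, 1.79 for Cxcl10 and 1.496 for Cxcl11, larger than in 99.5%, 99.7% and 90.7% of genes within 1 log2 unit of their level. Irf1 (SD 0.96) and Socs1 (SD 0.90) were above 97.1% and 88.5% of such genes. Ifng (SD 0.90) and Cxcr3 (SD 1.06) were above 73.3% and 67.5%. Ifngr1 (SD 0.45) was above 55.9% and Ifngr2 (SD 0.29) above 22.1%. With TMM scaling, which moves vehicle replicate 4 and IL-33 replicate 7 most, Ifngr1 had an SD of 0.27 and was above 24.6%.

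**Figure D3:**
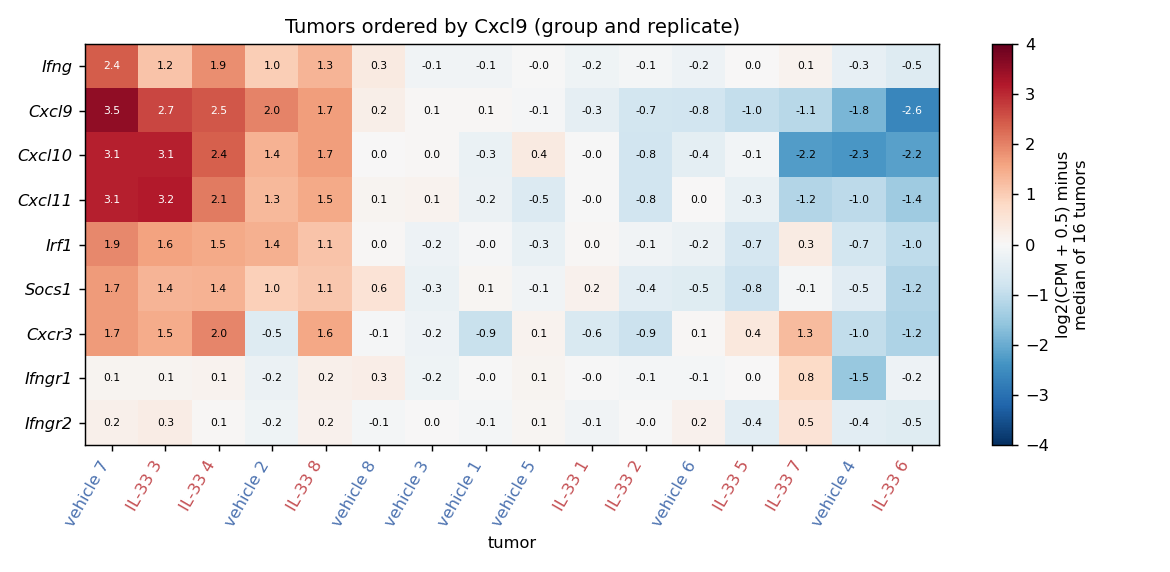
Columns are the 16 tumors ordered by Cxcl9 from high to low (vehicle names in blue, IL-33 names in red), rows are the 9 genes, and each cell gives log2(CPM + 0.5) minus that gene's median over the 16 tumors. The 5 columns on the left, 2 vehicle and 3 IL-33 tumors, are above the median for every gene from Ifng to Socs1, the row of Ifngr1 is near 0 except in vehicle replicate 4 and IL-33 replicate 7, and the row of Ifngr2 has the narrowest range of the 9.

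Marker genes of T cells and dendritic cells moved with this order. The summed level of 11 T cell genes was 37.7 to 117 CPM in these 5 tumors and 6.06 to 29.0 CPM in the others, with 1 marker, Cd3d, at 0 in vehicle replicate 6. By group it was 13.6 to 117 CPM for vehicle and 6.06 to 98.8 CPM for IL-33 tumors. The level of 8 dendritic cell genes was 79.4 to 157 CPM in the 5 tumors and 14.3 to 61.0 CPM in the others. For 8 epithelial genes it was 236 to 531 CPM in the 5 tumors and 494 to 1546 CPM in the others. Only 4 of the 5 were among the 5 highest for 9 NK cell genes and for 10 macrophage genes. The part of cell content in the tumor-to-tumor differences was not tested. Between the groups, Cd3e, a chain of the T cell receptor complex, had a log2 change of 0.13 (SE 0.62, edgeR adjusted p = 0.970), Cd8a of cytotoxic T cells 0.16 (SE 0.61, edgeR adjusted p = 0.962) and Ncr1 of NK cells 0.80 (SE 0.60, edgeR adjusted p = 0.666).

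Correlations over tumors were computed for the 36 pairs of the 9 genes on log2(CPM + 0.5). Over all 16 tumors, Pearson's r was 0.859 to 0.959 and Spearman's rho 0.715 to 0.941 in the 15 pairs among Ifng, Cxcl9, Cxcl10, Cxcl11, Irf1 and Socs1, and all 15 passed (largest permutation p adjusted over 36 pairs 0.000168, where 1e-05 is the smallest unadjusted p that the permutations can give). Within the vehicle group r was 0.870 to 0.973 and within the IL-33 treatment group 0.834 to 0.985, and all 15 passed in both by exact permutation of r (largest adjusted p 0.0298). By rank, rho was 0.667 to 0.952 and 0.619 to 0.976, and not all 15 passed in either group. The adjusted exact permutation p of rho was 0.148 for Ifng with Cxcl11 in vehicle tumors, for example. In IL-33 tumors this exact permutation p was 0.0999, 0.143 and 0.0942 for Ifng with Cxcl9, Cxcl10 and Cxcl11. There Ifng passed by rank with Irf1 and Socs1 but with none of the chemokines. In vehicle tumors Cxcl10 passed by rank with Ifng only. After the 2 tumors farthest from the median of the first gene were left out, r was 0.771 to 0.946.

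An r as high as the lowest of these 15, 0.859, was also reached by 3.58% of all pairs of the 16817 genes tested, and each of the 6 genes reached it with 1.30% to 1.89% of all genes. Over the 11 tumors with Cxcl9 under 20 CPM, r was between 0.310 and 0.861 and 5 of the 15 pairs passed (permutation test adjusted over 36 pairs). That limit was chosen after the data were seen and is set on one of the correlated genes, so that it narrows the range and lowers r by its construction. The chemokines had r of 0.845 for Cxcl9 with Cxcl10, 0.820 for Cxcl9 with Cxcl11 and 0.861 for Cxcl10 with Cxcl11 in these tumors, and Irf1 with Socs1 had 0.812. Ifng, with few reads in them, had 0.657 with Cxcl9 and 0.406 with Cxcl11. All values share library depth and composition within a tumor.

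Cxcr3 followed the 6 genes less closely, with r of 0.675 to 0.801 over 16 tumors (all 6 pairs passed, largest permutation p adjusted over 36 pairs 0.00697). In the 11 tumors r was 0.117 to 0.670 and 0 of 6 passed. The receptor chain Ifngr1 had r of 0.220 to 0.534 with Cxcr3 and the 6 genes, and 1 of 7 pairs passed. For Ifngr2 r was 0.371 to 0.677, and 2 of 7 pairs passed. Without IL-33 replicate 7, r was 0.568 to 0.740 for Ifngr2 and 7 of 7 pairs passed, whereas for Ifngr1 r was 0.380 to 0.579 and 2 of 7 passed (permutation tests adjusted over 36 pairs). For the 6 pairs of Cxcr3 r was then 0.755 to 0.867 and for the 15 pairs 0.897 to 0.976, and all of these passed.

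**Figure D4:**
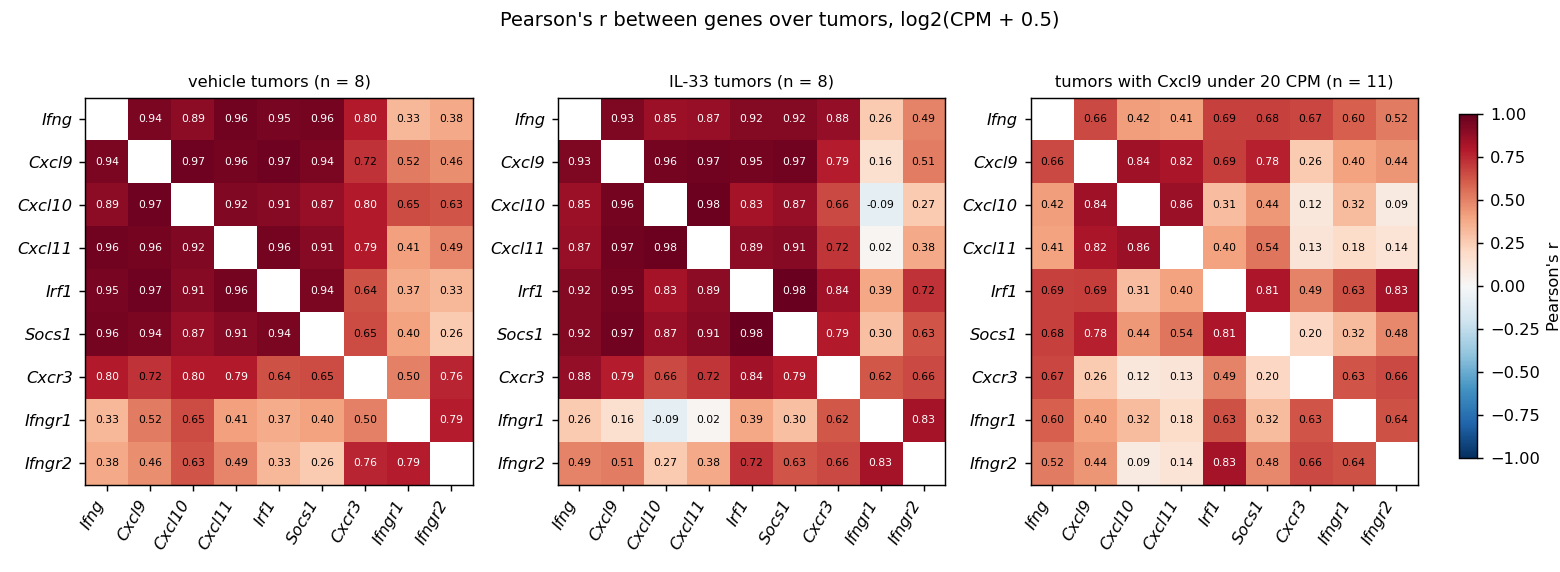
Color and number give Pearson's r of log2(CPM + 0.5) for each pair of genes in the 8 vehicle tumors, the 8 IL-33 tumors and the 11 tumors of both groups with Cxcl9 under 20 CPM. The block from Ifng to Socs1 is above 0.83 in both groups and falls to between 0.31 and 0.86 in the 11 tumors. The receptor chains are paler than this block in both groups, while in the 11 tumors Ifngr2 with Irf1 reaches 0.835.

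For each gene the 5 genes of most similar order over the 16 tumors were found by Spearman's rho among 13101 genes with a mean above 1 CPM. For Cxcl10 they included Rbm43 and the interferon-induced GTPases Ifi47, Irgm1 and Igtp (rho 0.950 to 0.971). Cxcl11 shared Irgm1 and Ifi47 with it (rho 0.941 and 0.918), and Cxcl9 shared Ifi47 (0.974) and had Kpna2, a nuclear import factor, on top (0.979). The other genes among the 5 of Cxcl11 and of Cxcl9 were not such GTPases, for example Ppm1g for Cxcl11 (0.938) and Hnrnpa2b1 for Cxcl9 (0.974). For Socs1 the closest were the replication genes Fen1 (0.959) and Ccne1 (0.956), with Cd3g, a chain of the T cell receptor complex, among the 5 (0.953). Irf1 was closest to Rinl, Prnd and Srsf6 (0.941, 0.932 and 0.926) and had the signaling adaptor Myd88 among the 5 (0.924). Ifng was closest to Gm49342, Trim34a and Ppm1h (0.953, 0.947 and 0.944), and Cxcr3 to Vwa5a, Sdc3 and C1ra (0.897, 0.897 and 0.888). The receptor chains had other neighbors, Dnaic2 (0.859) for Ifngr1 and Tmem86a (0.903) for Ifngr2. Ifi47, Gm49342 and Prnd overlap other genes and their reads may be shared.

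Ratios within a tumor, which depend little on its depth, were compared by exact permutation tests with adjustment over 5 ratios. The log2 ratio of Cxcl9 to Cxcl10 was -0.20 ± 0.38 (SD, n = 8) for vehicle tumors. It was -0.47 ± 0.58 (SD, n = 8) for IL-33 tumors, which is -0.27 relative to vehicle (exact p = 0.291, adjusted p = 0.363). Of the IL-33 tumors 7 of 8 were below the vehicle mean, and replicate 7 alone was above it, with the highest ratio of all 16. Without IL-33 replicate 7 the difference was -0.44 (exact permutation p = 0.0359, not adjusted). The ratio thus crossed the threshold in 1 of 16 fits that leave out a tumor.

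The log2 ratio of Ifngr1 to Ifngr2 was -0.19 ± 0.43 (SD, n = 8) for vehicle tumors. It was 0.087 ± 0.20 (SD, n = 8) for IL-33 tumors, 0.28 higher (exact p = 0.0940, adjusted p = 0.363), with 7 of 8 IL-33 tumors above the vehicle mean. Without vehicle replicate 4, the lowest tumor, the difference was 0.14 (exact permutation p = 0.188), and without vehicle replicate 8 it was 0.35 (exact permutation p = 0.0193). The Socs1 to Irf1 ratio was 0.17 lower on the log2 scale with IL-33 (exact permutation p = 0.197, adjusted p = 0.363). Set against Cd3e, the log2 level of Ifng with IL-33 was -0.062 relative to vehicle (exact permutation p = 0.760) and that of Cxcr3 0.43 (exact permutation p = 0.288). The medians of Ifng, 0.18 CPM in vehicle and 0.25 CPM in IL-33 tumors, lay below the 0.5 CPM added to each value. Its ratio to Cd3e therefore rested largely on that addition. The vehicle mean of this ratio was -1.55, but -2.32 with 0.1 CPM added and -0.81 with 2 CPM added. After adjustment no ratio passed the test.

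**Figure D5:**
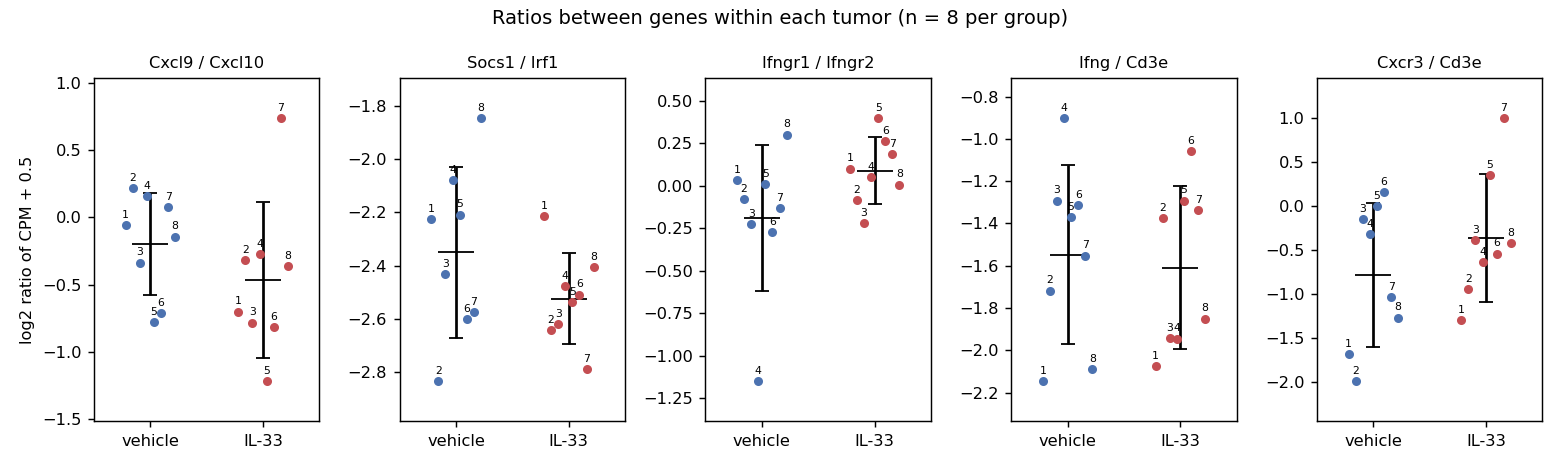
The vertical axis is the log2 ratio of CPM + 0.5 between 2 genes within a tumor, each point is 1 tumor labeled with its replicate number, and black lines are the mean and SD of each group (n = 8 per group). IL-33 replicate 7 is the highest point for Cxcl9 over Cxcl10, and vehicle replicate 4 is the lowest for Ifngr1 over Ifngr2.

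The wider pathway was described by lists of genes around the 9. Of 12 genes that drive interferon-gamma production (cytokines such as Il12b and Il18, their receptors and transcription factors), 11 could be tested and 0 passed, 10 had a fitted change above 0 and the median was 0.49 on the log2 scale, beside 0.056 over all genes. Stat4, which carries the IL-12 signal, was at 0.89 (SE 0.52, edgeR unadjusted p = 0.105) and Il18r1, an IL-18 receptor chain, at 0.88 (SE 0.53, edgeR unadjusted p = 0.117). The IL-12 receptor chain Il12rb1 was at -0.021 (SE 0.42). Leaving out IL-33 replicate 7 gave a median of 0.49 for the list. Without vehicle replicate 7 the median was 0.96, and Il12b, Ebi3 and Stat4 had an unadjusted p under 0.05 in edgeR, with Stat4 at 1.53 (SE 0.44, unadjusted p = 0.00294, adjusted p = 0.437). These 3 of 11 tested genes stand beside 10.1% of all genes higher at that threshold in the same fit. Over all genes tested, 58.3% had a fitted change above 0.

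Of 14 genes of the receptor's signal path, 0 passed after adjustment and 13 had a fitted change above 0 (median 0.11). Over all genes the share was 58.3% and the median 0.056. Socs3, an inhibitor of cytokine signals, was the only one with an unadjusted p under 0.05, and 9.99% of all genes reached that in the same direction. Its log2 change was 0.29 (SE 0.12, edgeR unadjusted p = 0.0246, adjusted p = 0.418). Jak2, the kinase of the signaling chain, was at 0.31 (SE 0.15, edgeR unadjusted p = 0.0571), and the phosphatase Ptpn11 at -0.025 (SE 0.18). Leaving out IL-33 replicate 7 gave a median of 0.19, and leaving out vehicle replicate 7 gave 0.25.

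Of 32 interferon-gamma targets, 0 passed and 29 had a fitted change above 0 (median 0.19), beside 58.3% and a median of 0.056 over all genes. Genes of 1 list can move together across tumors, so that such counts are not separate tests. The chemokine Ccl5 was at 0.64 (SE 0.47, edgeR unadjusted p = 0.188), the peptide transporter Tap1 at 0.39 (SE 0.30, edgeR unadjusted p = 0.213) and the immunoproteasome subunits Psmb10 and Psmb8 at -0.25 (SE 0.48, edgeR unadjusted p = 0.615) and -0.060 (SE 0.36). Their summed level was 2820 to 9143 CPM in vehicle tumors and 3245 to 8422 CPM in IL-33 tumors, so that the groups overlapped over most of their range. The 5 highest tumors of this sum were the 5 named above, at 6684 to 9143 CPM against 2820 to 4200 CPM in the others. This order was largely shared by the type I interferon list below and by the signal path, with 4 of the 5 on top in each. For the genes that drive interferon-gamma production and those that handle the CXCR3 ligands it was 2 of the 5. Without IL-33 replicate 7, Tap1 was at 0.54 (edgeR unadjusted p = 0.0405, adjusted p = 0.964) and the median of the list was 0.30. In that fit 1.83% of all genes were higher at an unadjusted p under 0.05. Without vehicle replicate 7 the median was 0.53, and Tap1, Ccl5 and the adhesion molecule Icam1 had an unadjusted p under 0.05 in edgeR, with adjusted p of 0.437 each. These were 3 of 32 genes, against 10.1% of all genes higher at that threshold in the same fit. Icam1 and Ebi3 lie outside the rule for named genes and were chosen after their values were seen.

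Of 7 genes that handle or resemble the CXCR3 ligands, 0 had an unadjusted p under 0.05 in the main fit, against 11.2% of all genes. Dpp4, a protease that trims these chemokines, was at 1.07 (SE 0.56, edgeR unadjusted p = 0.0701), and at 0.32 without IL-33 replicate 7. Pf4, a platelet chemokine, was at -1.03 (SE 0.60, edgeR unadjusted p = 0.101), the chemokine Cxcl16 at 0.54 (SE 0.38) and the scavenging receptor Ackr3 at -0.26 (SE 0.22). The median of this list was 0.35, and -0.15 without IL-33 replicate 7, -0.26 with DESeq2 and 0.89 without vehicle replicate 7. With DESeq2 an unadjusted p under 0.05 was reached by Dpp4 (1.11) and Ackr2 (-1.07), against 4.11% of all genes in either direction. Without IL-33 replicate 7 it was reached by Ackr2 (-1.12), where 2.29% of all genes were lower at that threshold. Without vehicle replicate 7 it was reached by Dpp4 (1.36) and Cxcl16 (0.89), where 10.1% of all genes were higher. None of them passed after adjustment. Ackr2, a scavenging receptor, was named after its values were seen. Of 16 type I interferon genes and targets, which are known to be driven through ISRE elements, 0 passed, 15 had a fitted change above 0 and the median was 0.23. Over all genes the share was 58.3% and the median 0.056. Rsad2, an antiviral target, was at 0.45 (SE 0.40, edgeR unadjusted p = 0.272), the receptor chain Ifnar2 at 0.16 (SE 0.15) and the cytokine Ifnb1 at -0.87 (SE 1.05). Leaving out IL-33 replicate 7 gave a median of 0.38, and leaving out vehicle replicate 7 gave 0.36.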

How the data were processed

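Poly(A) RNA of 16 abdominal tumors was sequenced by a company, and the authors deposited raw counts of reads per gene for each tumor, without normalization. The submitters' processing notes name HISAT2, featureCounts and the build mm10. Their versions, the annotation and the use of strand are not given in the sources used here, so overlapping genes may share reads. Groups and replicate numbers came from the labels. The members and lists were chosen with earlier results of these data known.

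Symbols and positions were taken from GENCODE M21 for 22255 of 22298 genes, and TPM used the summed exon length. Genes with at least 10 counts in all (16817) were tested with edgeR 4.0.16 (R 4.3.3) using TMM, glmQLFit, glmQLFTest and Benjamini-Hochberg adjustment over all genes. Standard errors were derived from the fitted change and its test. Single values were compared by two-sided exact permutation tests of log2(CPM + 0.5) over 12870 assignments (6435 without 1 tumor), and correlations by 100000 permutations or, for 8 tumors, exactly. No pair of libraries agreed within sampling noise (lowest chi-square per degree of freedom 9.12).

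The alternatives were DESeq2 1.42.0, upper-quartile factors, total counts, filterByExpr, no filter, robust fitting, limma 3.58.1 voom with quality weights, the replicate block, other pseudocounts and each tumor left out. The text names the 9 members, at most 4 genes of each list (smallest p in each direction), the 5 most similar genes of each member, and Cd3e, Cd8a and Ncr1. Not every gene so selected is described, and 1 of them is not reported here. The models and the permutation test were tested on simulated data.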

Additional observations from a re-analysis of the deposited data

Results flagged for a closer look

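In 28 groups of 8 tumors (18 of single genes and 10 of ratios), the gap between the outermost tumor and its neighbor, divided by the range of the group on the log2 scale, was compared with Dixon's critical value at 95%, and 4 lay above it. Chance alone flags about 1 group in 20. Ifngr1 was far lower in vehicle replicate 4 than in the other vehicle tumors (gap over range 0.724) and higher in IL-33 replicate 7 than in the other IL-33 tumors (0.572). The ratio of Ifngr1 to Ifngr2 was lowest in vehicle replicate 4 (0.605). Cxcr3 was highest among vehicle tumors in replicate 7 (0.586), the tumor that was also highest in its group for Ifng, Irf1, Socs1 and the 3 chemokines.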

How the results depend on the processing

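No member passed an adjusted p of 0.05 in any of 224 alternative fits, whose smallest adjusted p was 0.437. The log2 change of members near 0 changed sign for Ifng with voom (0.34) and the replicate block (0.081), for Ifngr2 with total counts (0.064), and for Socs1 with total counts (0.026), voom (0.088) and without both IL-33 replicate 7 and vehicle replicate 4 (0.0033). Total counts moved the median change of all genes from 0.056 to 0.13. When single tumors were left out, the change ranged from -0.53 to 1.10 for Ifng, -0.73 to 0.74 for Cxcl9, -0.36 to 1.15 for Cxcl10, -0.60 to 1.33 for Cxcl11, -0.21 to 0.38 for Irf1 and -0.26 to 0.25 for Socs1, so that the sign rested on single tumors. The changes of Ifngr1, Ifngr2 and Cxcr3 kept their sign in all 16 such fits. In size, Ifngr1 fell from 0.20 to 0.11 without vehicle replicate 4 and to 0.056 with voom, Cxcr3 from 0.84 to 0.45 with voom, and Cxcl10 and Cxcl11 from 0.28 and 0.25 to 0.026 and 0.040 with the replicate block. filterByExpr gave no value for Ifng.

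No gene passed the adjusted threshold in any fit. The number at an unadjusted p under 0.05 was 1680 higher and 196 lower in the main comparison. It was 424 higher with DESeq2 (267 lower), 499 higher with filterByExpr, 522 higher and 444 lower with voom, 246 higher and 72 lower with the replicate block, 330 higher and 329 lower without IL-33 replicate 7 and vehicle replicate 4, and 101 lower with total counts. With each tumor left out it ranged from 289 (without IL-33 replicate 7) to 1902 higher and from 111 to 362 lower. The causes were not tested.

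With each tumor left out, the difference in log2 ratio ranged from -0.44 to -0.16 for Cxcl9 to Cxcl10, from 0.14 to 0.35 for Ifngr1 to Ifngr2, and from -0.15 to 0.031 for Ifng to Cd3e. Of 36 pairs, 25 correlated by Pearson's r at an adjusted p under 0.05 in all tumors, 31 without IL-33 replicate 7, 15 within the vehicle group, 18 within the IL-33 treatment group and 6 in the tumors with Cxcl9 under 20 CPM. By Spearman's rho these counts were 29, 34, 10, 18 and 4. Same-numbered tumors did not all deviate together (correlations -0.338 to 0.373, 3 of 8 over 0.1, and 2 of 8 best with their own number). Pairing was not tested and the labels state none, so that the replicate block was used as an alternative only.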
